A study of Mus musculus with 12 samples.

Results

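Gene expression was measured by RNA sequencing in mouse livers with carbon tetrachloride (CCl4) injury, and the comparison described here set livers of mice given phloridzin against livers of mice given CCl4 with no drug. It used 6 of the 12 livers of the series, 3 phloridzin livers (columns G1, G5 and G8 of the deposited table, called phloridzin 1, 2 and 3) and 3 model livers (columns M2, M5 and M6, called model 1, 2 and 3), taken by their labels and not by any measured value. All animals were male C57/BL6N mice, and their ages are not given in the labels. Model mice had received a dilute solution of CCl4 in olive oil, 5 mL/kg of the solution, injected into the peritoneum 2 times per week for 8 weeks. Phloridzin mice had received the same injections and, from week 5, phloridzin at 40 mg/kg, the high dose of the study. The other 6 livers were 3 from mice given CCl4 and silibinin, a flavonolignan mixture from milk thistle used as a liver drug, and 3 control livers from mice without CCl4. They entered the model of variance and stand beside the main comparison.

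Phloridzin is a dihydrochalcone glucoside of apple trees that blocks the sodium-glucose cotransporters SGLT1 and SGLT2, which take up glucose from the gut and reabsorb it in the kidney. CCl4 is converted by cytochrome P450 2E1 in hepatocytes around the central vein to radicals that damage membranes, and repeated injections lead to scarring by activated stellate cells. The comparison asks how the transcripts of injured livers differ when the drug is given during the second part of the injury period.

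Values were deposited as fragments per kilobase of transcript and per M (mega) of fragments sequenced (FPKM), with 1 row per transcript, and were summed here over the rows of a gene symbol. Recovered from FPKM and transcript length, the depth was 102.1, 104.7 and 98.5 M fragments in the phloridzin livers. In the model livers it was 83.7, 101.5 and 100.1 M. Livers were scaled by median ratios, with factors of 1.14, 1.00 and 0.993 for phloridzin livers 1, 2 and 3. The model livers had factors of 1.21, 1.16 and 1.19. All levels below are scaled FPKM, a measure per length, so levels of different genes can be set side by side, and values of 3 livers are always in the order 1, 2, 3. Fold changes are differences between group means of log2(scaled FPKM + 1), phloridzin minus model, which understates changes of genes near 0. A gene was called where the limma fit of all 12 livers gave a Benjamini-Hochberg adjusted p below 0.05 over the 13079 genes tested (mean scaled FPKM of at least 0.5) and the log2 fold change passed 1 in either direction. Standard errors (SE) are those of the same fit, with n = 3 livers a group.

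Alb (albumin), a marker of liver tissue, was high in all 6 livers. It read 16549, 22842 and 16789 in the phloridzin livers and 10897, 17804 and 19764 in the model livers. Ttr (transthyretin), also a hepatocyte product, read 9.05, 2526 and 1850.2 in the phloridzin livers, so phloridzin 1 was far below the other 2. The control livers read 45.5, 2671 and 935, lowest in control 1. Of 22 pancreatic, intestinal and kidney markers in the table, 3 passed the level filter and 0 were called by limma, Fabp2 being the most abundant. The summed level of all 22 was 36.3, 31.8 and 26.7 FPKM in the phloridzin livers, 17.0, 18.5 and 24.7 in the model livers and 31.0, 44.2 and 33.3 in the controls. Of 17 adipocyte, muscle and mesothelial markers 6 passed, Msln being the most abundant, and 1 was called lower (Cidec, a lipid droplet protein, by limma at -1.35 log2 units), with sums over all 17 of 19.0, 8.02 and 13.6 FPKM in the phloridzin livers and 8.37, 11.7 and 16.0 in the model livers. Their part in the results was not tested. Ctrb1, Muc2, Umod, Plin1 and Ckm of these lists were at or near 0 in every liver. Hemoglobin beta (Hbb-bs) read 82.4, 468 and 602 in the phloridzin livers, lowest in phloridzin 1. Hemoglobin alpha (Hba-a1) read 74.8, 56.6 and 58.1 in the same livers, highest in phloridzin 1. Over 11 erythroid and platelet genes the median of phloridzin 1 minus the mean of phloridzin 2 and 3 was -0.30 log2 units. Of these 11, 1 lay more than 1 unit higher and 1 more than 1 unit lower.

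Phloridzin 1 stood apart from phloridzin 2 and 3. In it, 1055 genes (8.07% of those tested) lay more than 1 log2 unit from the mean of the other 2 livers of the group, 625 above and 430 below. The same count was 638 for phloridzin 2 and 716 for phloridzin 3. Across the model livers it ran from 533 to 559, and across the other 6 livers from 467 to 644. The root mean square difference over all genes, in log2 units, was 0.67 between phloridzin 1 and 2 and 0.68 between phloridzin 1 and 3. Between phloridzin 2 and 3 it was 0.54. From the model mean the 3 phloridzin livers lay at like distances of 0.64, 0.63 and 0.62. Genes and lists that set phloridzin 1 apart are given after the main results, and several values that rest on it are given with and without it. 

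**Figure D1:**
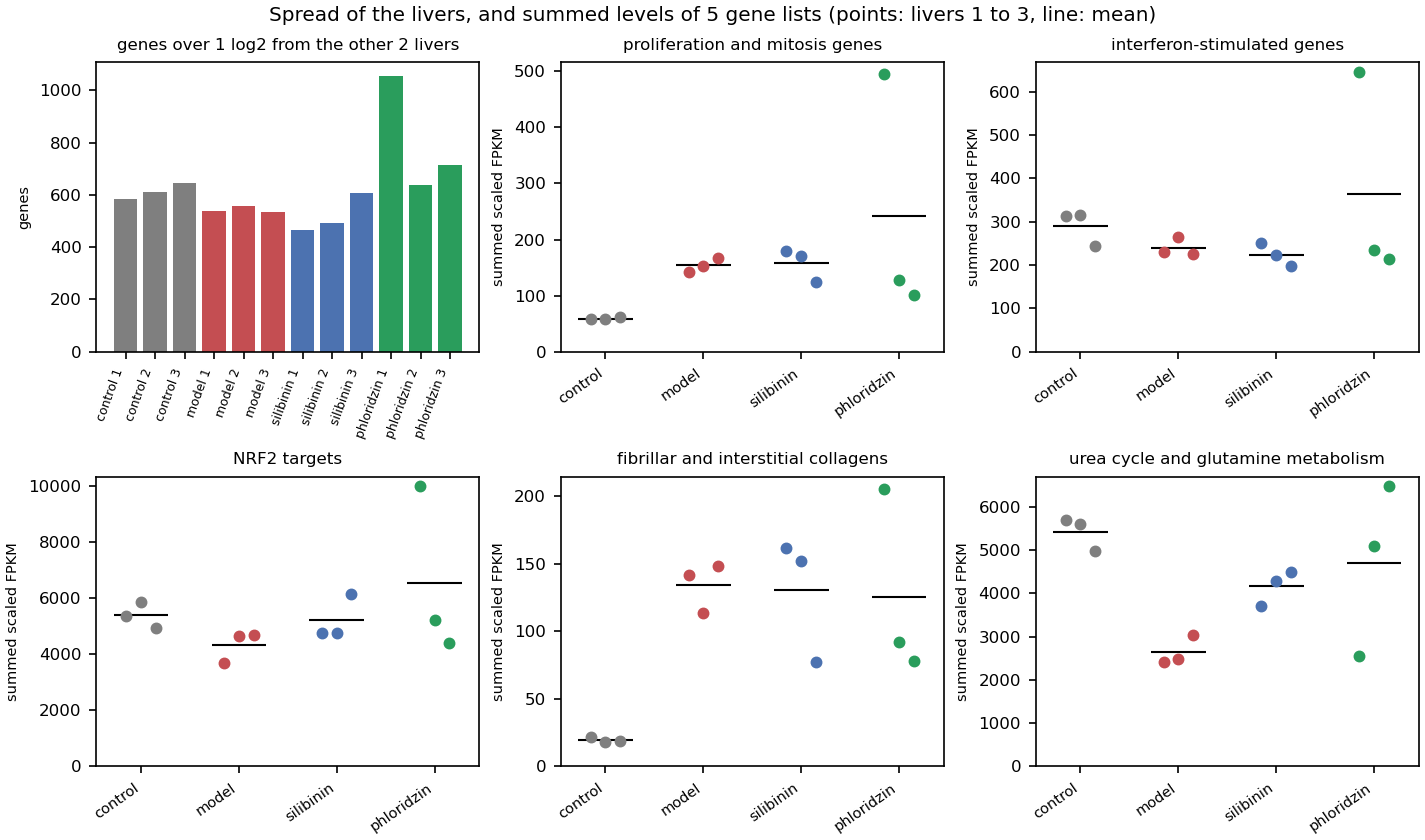
The bars count genes more than 1 log2 unit from the mean of the other 2 livers of a group, and the other panels give the summed scaled FPKM of 5 gene lists in each liver (points in the order 1, 2, 3, line at the group mean). Phloridzin 1 has the highest bar, 1055 genes, and the highest sums of proliferation, interferon-stimulated, NRF2 target and collagen genes.

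Against the model livers, 377 genes (2.88% of those tested) were called, 140 higher (1.07%) and 237 lower (1.81%) in the phloridzin livers. Since bulk tissue was sequenced, a change in the number of cells of a type and a change in RNA per cell cannot be told apart in any of these values. The median log2 fold change over all genes tested was 0.03. In 375 of the 377 the 3 phloridzin livers did not overlap the 3 model livers. Over all genes tested, 15.7% had all 3 phloridzin livers above all 3 model livers and 15.4% had all 3 below. The balance of calls moved with scaling, the share of called genes that were higher being 37.1% here, 17.1% without scaling and 8.24% with livers scaled to equal totals, where the median of all genes shifted by -0.14 and -0.24. Left out in turn, model 2 (64), phloridzin 2 (80) and phloridzin 1 (235) moved the count of higher genes most, and model 2 lowered the whole count to 252. Between 188 and 279 genes were called lower with any single liver left out. Of the 377 called genes, 326 were called without phloridzin 1. A fit of the 6 livers alone called 279 genes, 76 higher and 203 lower, of which 248 were shared with the 377, and of the genes named below it did not call Fgf21, Psat1, Ddit3, Abcc4, Cyp7a1, Tff3, Got1, Gpx4, Lhpp, Glul, Fbp1, G6pc, Pdk2, Slc2a5, Cth, Cidec and Krt8. The same fit without phloridzin 1 did not call Cidec, Cyp7a1, Ddit3, Fbp1, Gpx4, Gstt3, Hspa1b, Krt8, Mrpl49, Ppp1r15a and Tdo2. With the top transcript of each gene, Cdkn2c, Cyp4a12a, Ddit3, G6pc, Glul, Got1, Gpx4, Lhpp, Slc2a5 and Syvn1 were not called. Equal totals ended the calls of Cdkn2c, Cyp4a12a, G6pc, Glul, Gpx4, Pdk2 and Slc2a5, no scaling those of Cyp4a12a, G6pc, Glul and Pdk2, and voom on recovered fragments those of Slc3a1 and Tff3. Without a filter on low values Cyp4a12a, Cyp7a1, Fbp1, G6pc, Got1 and Gpx4 were not called, and with replicate number as a block Cyp4a12a and Gpx4.

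**Figure D2:**
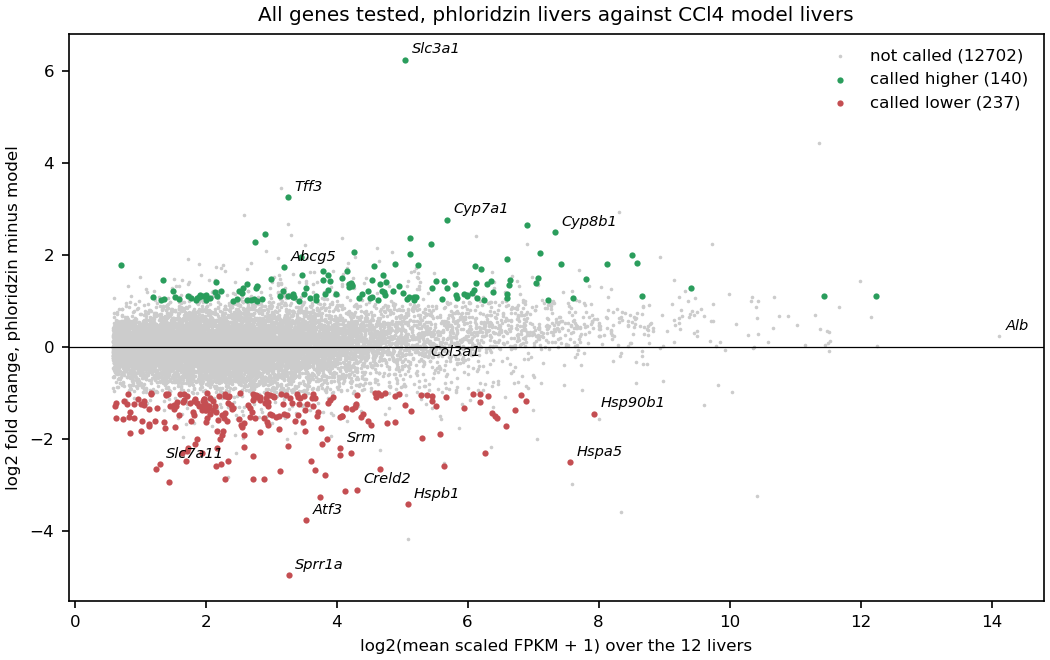
Each point is a gene tested, with its mean level over the 12 livers on the x axis and its log2 fold change, phloridzin minus model, on the y axis. Of 13079 genes, 140 were called higher and 237 lower, with ER chaperone and stress genes among the falls of abundant genes.

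Genes of protein folding in the endoplasmic reticulum (ER) gave a block of falls among abundant transcripts. Of 24 ER chaperones tested, 10 were called lower and 0 higher, with a median log2 fold change of -0.77. The count was 10 with any single liver left out of the 12. The summed level of the list was 676, 663 and 674 FPKM in the phloridzin livers. It was 1664, 2045 and 1878 FPKM in the model livers and 951, 1051 and 1215 in the controls, so the phloridzin livers lay below both. Hspa5 (the chaperone BiP, which also holds the ER stress sensors inactive) read 389, 448 and 456 in the model livers and 65.7, 83.8 and 77.9 in the phloridzin livers. Every phloridzin liver was below every model liver, and also below every control liver. The gene fell by 2.50 log2 units (SE 0.16, limma with Benjamini-Hochberg adjusted p 1.7e-05), and against control the difference was -1.14 log2 units (adjusted p 0.006 in the same limma fit with Benjamini-Hochberg).

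Creld2 (a secreted factor of ER stress) read 46.2, 64.4 and 45.0 FPKM in the model livers and 5.05, 5.02 and 5.18 in the phloridzin livers. The phloridzin values lay close together and far under all model values. It fell by 3.10 log2 units (SE 0.22). Hsp90b1 (GRP94, the ER form of HSP90) was the most abundant chaperone of the list and read 368, 496 and 418 in the model livers against 160.3, 149 and 156 in the phloridzin livers. The groups did not overlap, and the gene fell by 1.45 log2 units (SE 0.14). Sdf2l1 (a partner of BiP) fell by 2.65 log2 units. Manf (a secreted ER stress factor) fell by 2.59 log2 units. Calr (calreticulin, a lectin chaperone that binds calcium) fell by 2.31 log2 units. Fkbp11 (an ER prolyl isomerase) fell by 2.48 log2 units. For these genes the limma adjusted p (Benjamini-Hochberg) ran from 3.2e-05 for Creld2 to 0.0022 for Calr.

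In 3 other lists of the secretory route some members were called lower, and most were not called. Among 19 protein disulfide isomerases and oxidases, 3 were called lower, Pdia4, Pdia6 and Pdia3, all abundant enzymes that form disulfide bonds, with log2 fold changes of -1.37, -1.497 and -1.18. The list median was -0.32, and the summed levels of 915, 928 and 1106 FPKM in the phloridzin livers and 1468, 1543 and 1108 in the model livers nearly met. In ER-associated degradation, which returns misfolded proteins to the cytosol, 5 of 28 genes were called lower, with a median of -0.51. Derl3 (a channel component of that pathway) read 8.18, 5.72 and 4.81 FPKM in the model livers and 0.549, 0.535 and 0.278 in the phloridzin livers. It fell by 2.29 log2 units, with no overlap. Sel1l (an adaptor of its ubiquitin ligase) fell by 1.279 log2 units, with no overlap between the groups. Of 52 genes for translocation into the ER and transport to the Golgi, 12 were called lower and 0 higher, at a median of -0.64. Sec61a1 (the pore of the translocon) read 164, 150.2 and 153 FPKM in the model livers and 51.8, 52.9 and 54.3 in the phloridzin livers, and fell by 1.54 log2 units. Srprb (the anchor of the signal recognition receptor) fell by 1.82 log2 units. Scaled to equal totals, the livers gave 6, 11 and 23 called genes in the 3 lists. The 7 genes named for these routes were called in every fit with a liver left out.

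Regulators and effectors of the ER stress response were also called lower in part. Of 14 transcription factors and sensors of ER stress, 5 were called lower (35.7%) and 0 higher, with a median of -0.69 log2 units. Ddit3 (CHOP) and Ppp1r15a are among the 5 and are counted again in the list of ATF4 targets below. The count of 5 fell to 2 without model 2 and to 3 without phloridzin 2. Ppp1r15a (GADD34, which reverses the translation block of stress) fell by 1.41 log2 units and was called with any single liver left out of the 12, but not in a fit of the 2 groups without phloridzin 1. Xbp1 (a factor spliced under ER stress) was not called, with 58.1, 37.3 and 23.5 FPKM in the model livers and 30.7, 26.0 and 27.9 in the phloridzin livers. Its groups overlapped, and splicing cannot be read from gene sums.

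Promoters of these genes were searched for the ER stress element, CCAAT and CCACG separated by 9 bases, on both strands of the 250 bases before the transcription start. It was found in 15 of 9443 promoters of genes tested (0.159%), in 8 of the 181 promoters of genes called lower (4.42%) and in 0 of the 104 of genes called higher. Among ER chaperones, 6 of 20 promoters held it (30.0%). A match is a description of the sequence and shows no binding. The stretches of 4 genes follow, from RefSeq on build GRCm38.p6, in the direction of transcription, with capitals for the bases from end to end of the element. The stretch of Hspa5 lies at chr2:34772000-34772068 on the plus strand.

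Hspa5: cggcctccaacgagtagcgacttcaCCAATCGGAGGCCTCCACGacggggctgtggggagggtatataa

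That of Creld2 lies at chr15:88819495-88819563 on the plus strand, with the element in antisense direction.

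Creld2: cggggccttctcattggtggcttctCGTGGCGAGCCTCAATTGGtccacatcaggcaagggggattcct

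That of Calr lies at chr8:84847050-84847118 on the minus strand, also with the element in antisense direction.

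Calr: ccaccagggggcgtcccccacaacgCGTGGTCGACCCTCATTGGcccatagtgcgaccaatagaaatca

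The promoter of Hsp90b1 holds 2 elements, at chr10:86705508-86705681 on the minus strand.

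Hsp90b1: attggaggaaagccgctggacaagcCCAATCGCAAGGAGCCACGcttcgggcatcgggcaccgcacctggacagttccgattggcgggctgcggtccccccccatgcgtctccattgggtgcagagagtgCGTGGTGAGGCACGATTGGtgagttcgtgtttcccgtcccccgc

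Targets of ATF4, the transcription factor of the integrated stress response, formed another block. Of 31 tested, 15 were called lower and 1 higher, with a median of -0.96 log2 units, beside 0.03 for all genes. With single livers left out of the 12 the number called stayed between 14 and 17. The summed level did not follow the median, with 620.1, 1046 and 1179.6 FPKM in the phloridzin livers and 799, 883 and 876 in the model livers, so phloridzin 2 and 3 lay above every model liver. The most abundant member and the only one called higher was Cth (cystathionine gamma-lyase, which makes cysteine), at 231, 697 and 713 FPKM in the phloridzin livers and 131, 115 and 168 in the model livers. Phloridzin 1 was nearest to the model livers. The rise of 1.83 log2 units was not called without model 1 (1.80), model 2 (1.71), phloridzin 2 (1.57) or phloridzin 3 (1.56). Atf3 (a transcription factor induced by many stresses) read 35.2, 37.0 and 42.2 FPKM in the model livers and 2.84, 1.499 and 1.52 in the phloridzin livers. All phloridzin livers were far below the model livers yet above the controls, which read 0.373, 0.277 and 0.431. It fell by 3.76 log2 units (SE 0.22, limma with Benjamini-Hochberg adjusted p 1.1e-05). Trib3 (a pseudokinase that restrains ATF4) read 53.2, 36.4 and 62.6 in the model livers and 4.11, 4.88 and 5.40 in the phloridzin livers, near the controls at 6.18, 7.22 and 5.04. It fell by 3.13 log2 units (SE 0.20).

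Slc7a11 (the cystine transporter xCT, which feeds glutathione synthesis and restrains ferroptosis) read 4.30, 7.36 and 5.21 FPKM in the model livers and 0.298, 0.0215 and 0.0419 in the phloridzin livers. The control livers read 0.0275, 0 and 0.00976, so the gene was close to 0 in both of those groups and above 4 FPKM only after CCl4 with no drug. It fell by 2.55 log2 units (SE 0.16), the values near 0 making this an understatement. Slc3a2 (the chain that carries xCT to the membrane) fell by 1.64 log2 units. Fgf21 (a hormone of fasting and stress) read 8.45, 8.07 and 22.5 in the model livers and 3.54, 0.160 and 0 in the phloridzin livers, the highest phloridzin value in phloridzin 1. It fell by 2.86 log2 units with that liver and, with it left out, fell by 3.53. Psat1 (serine synthesis) had the same pattern, with 6.63, 1.43 and 1.17 FPKM in the phloridzin livers against 15.7, 16.3 and 18.4 in the model livers, and it fell by 2.37 log2 units. Ddit3 (CHOP, a death-promoting factor) read 3.78, 26.9 and 35.3 in the model livers, with model 1 far below the other 2, and 1.09, 1.84 and 1.08 in the phloridzin livers. It fell by 2.87 log2 units but was not called without model 2 (-2.50), and its locus overlaps Mars.

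The C/EBP-ATF element, TGATG and AA separated by 1 base, lay in 225 of the 9443 promoters (2.38%), in 8 of 181 called lower (4.42%), in 2 of 104 called higher (1.92%) and in 7 of 27 ATF4 target promoters (25.9%). Capitals again mark the element. The stretch of Atf3 lies at chr1:191183411-191183468 on the minus strand.

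Atf3: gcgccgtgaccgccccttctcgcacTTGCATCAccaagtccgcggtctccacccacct

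The stretch of Slc7a11, with 2 elements, lies at chr3:50443628-50443704 on the minus strand.

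Slc7a11: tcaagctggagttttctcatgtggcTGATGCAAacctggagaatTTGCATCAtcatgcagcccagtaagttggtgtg

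The stretch of Fgf21 lies at chr7:45615597-45615654 on the minus strand.

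Fgf21: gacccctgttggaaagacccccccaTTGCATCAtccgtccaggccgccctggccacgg

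For comparison, the antioxidant element was searched, TGAC and GC separated by 3 bases. It lay in 13.8% of all promoters, in 13.8% of those called lower and in 11.5% of those called higher. Its share was 28.6% of 35 promoters for targets of NRF2 (a factor of the oxidative stress response) and 22.2% of 27 for ATF4 targets. For ER-associated degradation it was 27.3% of 22 promoters, and for disulfide isomerases and oxidases 26.7% of 15. Among ER chaperones 2 of 20 promoters held it, a share below that of all promoters. The element was thus more frequent in some stress lists too, and not only among NRF2 targets.

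Single genes of polyamine, folate and hexosamine metabolism were also called lower, while the lists that hold them were mixed. Srm (spermidine synthase, a step of polyamine synthesis) read 34.4, 38.4 and 39.95 FPKM in the model livers and 6.78, 7.24 and 8.14 in the phloridzin livers. The phloridzin livers lay below the model livers and below the controls, which read 11.2, 11.2 and 10.5. It fell by 2.20 log2 units (SE 0.11, limma with Benjamini-Hochberg adjusted p 6.1e-06). Mthfd2 (mitochondrial folate metabolism) fell by 1.60 log2 units, and the amino acid carriers Slc7a1 and Slc7a5 had log2 fold changes of -1.26 and -1.22. Of 34 genes of hexosamine and nucleotide sugar synthesis, 7 were called lower and 0 higher, although the list median was -0.05, and 11 were called with equal totals. Without overlap, 13 members lay below the model and 7 above. Gfpt1 (the entry enzyme of the hexosamine pathway) read 31.1, 32.4 and 27.0 FPKM in the model livers and 6.12, 7.26 and 6.87 in the phloridzin livers. It fell by 2.01 log2 units, with no overlap. Among 22 aminoacyl-tRNA synthetases 3 were called lower, a count that went to 0 without phloridzin 2 and to 1 without model 1, 2 or 3 or phloridzin 3. Their median was -0.49 log2 units, and 6 were called without scaling and 8 with equal totals.

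**Figure D3:**
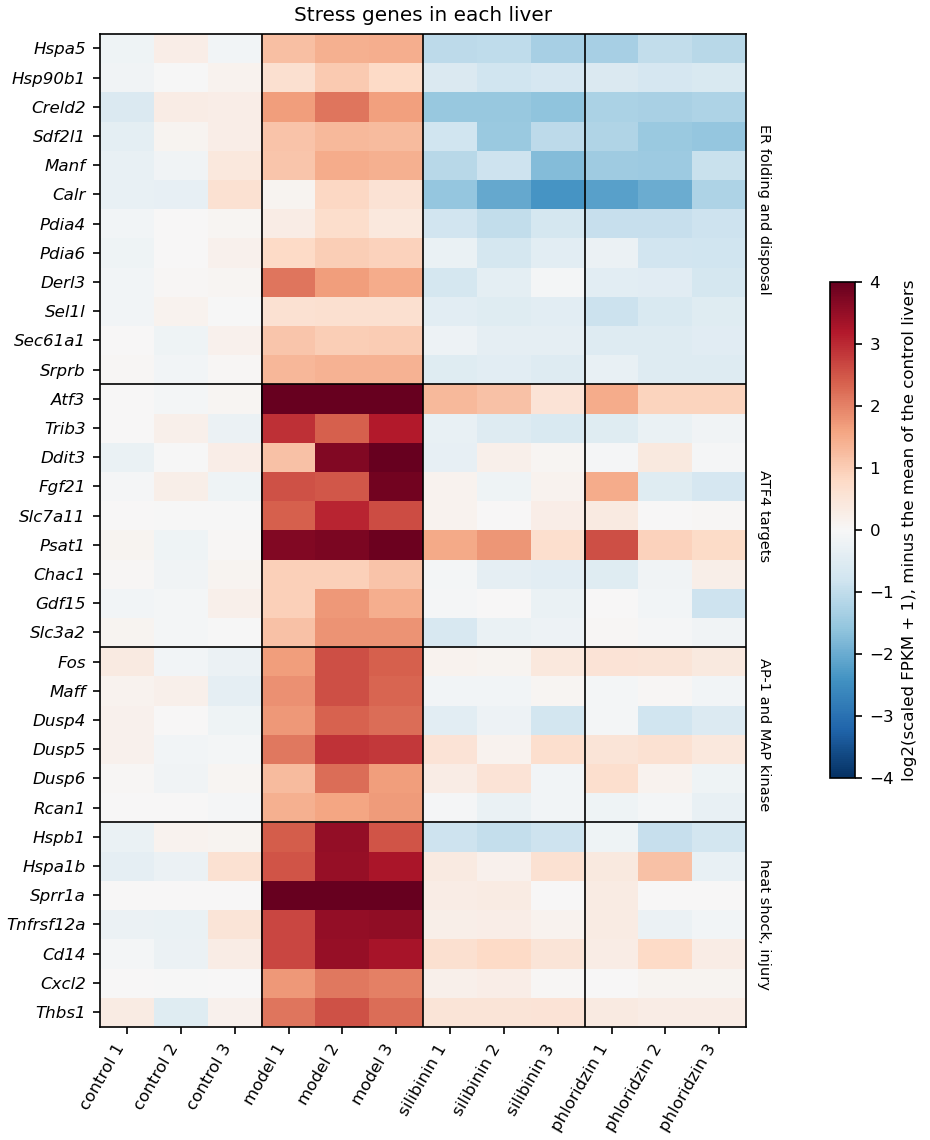
The heat map shows log2(scaled FPKM + 1) minus the mean of the 3 control livers for stress genes (lines) in each of the 12 livers (columns). All genes shown were picked from those called lower in phloridzin against model, so model above phloridzin was fixed by the choice. The 3 model livers are high throughout, and the phloridzin and silibinin livers lie near the controls for most genes, below them for most ER genes and above them for Atf3 and Psat1.

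Immediate early and AP-1 genes had the lowest list median, -1.16 log2 units, with 15 of 28 called lower and 0 higher. All 3 phloridzin livers were below all 3 model livers for 22 of them. Fos (an AP-1 subunit) read 3.31, 7.24 and 6.21 FPKM in the model livers and 1.01, 0.942 and 0.789 in the phloridzin livers, and fell by 1.73 log2 units. Maff (a small Maf factor) fell by 2.30 log2 units. Dusp4 and Dusp5, phosphatases that end MAP kinase signals, had log2 fold changes of -2.59 and -2.10. Rcan1 (an inhibitor of calcineurin) fell by 1.76 log2 units, from 24.2, 27.2 and 30.0 FPKM to 7.30, 8.00 and 6.61, close to the controls. Of 27 p53 target and growth arrest genes 5 were called lower and 1 higher, at a median of -0.35 log2 units, with 11 members below the model without overlap and 6 above. The higher gene was Cdkn2c (an inhibitor of cell cycle kinases), which rose by 1.17 log2 units and was not called with equal totals (0.93) or with its top transcript alone (0.62). Among the lower genes was Gadd45a (a DNA damage response gene), which fell by 2.17 log2 units.

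The largest fall among all genes tested was that of Sprr1a (a small proline-rich protein of injured epithelium and of fibrogenic ducts). It read 27.9, 51.0 and 23.9 FPKM in the model livers and 0.255, 0 and 0 in the phloridzin livers. The controls were listed at 0, and phloridzin livers 2 and 3 were too. It fell by 4.95 log2 units (SE 0.24, limma with Benjamini-Hochberg adjusted p 5.0e-06). Tnfrsf12a (the TWEAK receptor FN14, which drives progenitor responses) read 25.6, 46.5 and 47.1 in the model livers and 4.18, 2.48 and 2.85 in the phloridzin livers. The phloridzin values lay within the range of the controls, and the gene fell by 3.26 log2 units (SE 0.27). Hspb1 (the small heat shock protein HSP27) read 73.5, 158 and 78.8 in the model livers, highest in model 2, and 11.3, 6.42 and 7.49 in the phloridzin livers. It fell by 3.42 log2 units (SE 0.28). Because Hsp25-ps1, a pseudogene copy of Hspb1, fell by 2.86 log2 units as well, reads may be shared between the 2. Hspa1b (inducible HSP70) fell by 2.67 log2 units. Of 39 cytosolic heat shock proteins only 4 were called lower, at a median of -0.27. Bhlha15 (MIST1, a factor of secretory cells) read 7.99, 5.24 and 7.12 in the model livers and was listed at 0 in all 3 phloridzin livers.

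Several inflammatory signals also fell. Of 32 cytokines, chemokines and adhesion molecules, 7 were called lower and 0 higher, with a median of -0.43. Cxcl2 (a neutrophil attractant) read 2.36, 3.35 and 3.15 FPKM in the model livers and 0.0332, 0.102 and 0.0990 in the phloridzin livers. No phloridzin liver came near a model liver, and the gene fell by 1.87 log2 units (limma with Benjamini-Hochberg adjusted p 1.6e-05). Cxcl10 (a lymphocyte attractant induced by interferon) fell by 1.83 log2 units, from 9.84, 11.7 and 10.2 FPKM to 3.85, 2.66 and 0.945. Il1rn (the antagonist of the interleukin-1 receptor) fell by 1.29 log2 units. Cd14 (a co-receptor for lipopolysaccharide) read 16.2, 29.1 and 25.1 in the model livers and 2.31, 3.65 and 2.30 in the phloridzin livers. It fell by 2.68 log2 units, and it was the only called gene among 28 macrophage and Kupffer cell markers, of which 2 were called without phloridzin 1. The median of these markers was 0.30 and ran from -0.004 to 0.58 over the alternatives run. Lyz2 (lysozyme, a marker of macrophages) read 148, 242 and 215 in the model livers and 281, 327 and 155 in the phloridzin livers, with overlap, and was not called.

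Matrix genes were divided, with collagens not called and 26.1% of matrix proteases and inhibitors called lower. By limma, 0 of 15 fibrillar and interstitial collagens were called (1 at unadjusted p below 0.05 with the same fold cutoff), and their median was -0.24 log2 units. With 2.88% of all genes called, 0 in a list of this size is near the background. Col1a1 (the main collagen of scars) read 38.3, 32.0 and 52.2 FPKM in the model livers and 74.5, 22 and 17.2 in the phloridzin livers. Phloridzin 1 was above every model liver, and phloridzin 2 and 3 were below every model liver. The difference was -0.37 log2 units (SE 0.52, limma with Benjamini-Hochberg adjusted p 0.69), and without phloridzin 1 it was -1.001 and not called. Col3a1 (the collagen laid down with it) read 56.9, 46.7 and 52.0 in the model livers and 85.5, 32.4 and 24.3 in the phloridzin livers. The order of the phloridzin livers was the same as for Col1a1, and that of the model livers was not. Its difference was -0.33 log2 units with phloridzin 1 and -0.86 without. The summed level of the list was 205, 92.5 and 78.4 FPKM in the phloridzin livers, 142, 113 and 148 in the model livers and 21.4, 18.2 and 18.9 in the controls. Col1a1 and Col3a1 made up most of the sums of the phloridzin and model livers, and the median member gave another order of livers. Taken over the control mean, that median was 0.77, 1.17 and 0.62 log2 units in the phloridzin livers, highest in phloridzin 2, and 1.01, 0.83 and 0.86 in the model livers. In phloridzin 1, 2 of the 15 lay more than 1 log2 unit above its group. By summed level silibinin 3 was low as well, the silibinin livers summing to 162, 152 and 77.5 FPKM. Leaving out phloridzin 1 brought 1 of these collagens over the thresholds, and against control 4 of the 15 were called higher.

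Acta2 (smooth muscle actin of myofibroblasts) read 5.09, 3.34 and 1.35 FPKM in the model livers and 2.43, 5.12 and 1.80 in the phloridzin livers. The groups overlapped fully, with a difference of -0.03 log2 units. Timp1 (an inhibitor of matrix proteases) read 1.15, 2.52 and 1.22 in the model livers and 1.24, 0.130 and 1.18 in the phloridzin livers, with overlap and no call. Of 23 stellate cell and myofibroblast markers and 18 basement membrane genes, 0 were called by limma, with 0 and 1 at unadjusted p and medians of 0.00 and -0.01, and leaving out phloridzin 1 gave 1 call in each. Over all genes tested, 544 passed at unadjusted p with the fold cutoff. Among 41 genes of matrix crosslinking, proteoglycans and elastic fibres the only call was Thbs1 (thrombospondin 1, which activates TGF-beta). Thbs1 read 6.36, 8.83 and 6.95 in the model livers and 1.15, 1.08 and 1.04 in the phloridzin livers, and fell by 1.99 log2 units (SE 0.19). Plaur (the urokinase receptor) and Mmp13 (a collagenase) had log2 fold changes of -1.48 and -1.62. They were among 6 of 23 proteases and inhibitors called lower, at a list median of -0.13. TGF-beta ligands, receptors and response genes gave 3 calls of 24, with a median of -0.06.

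**Figure D4:**
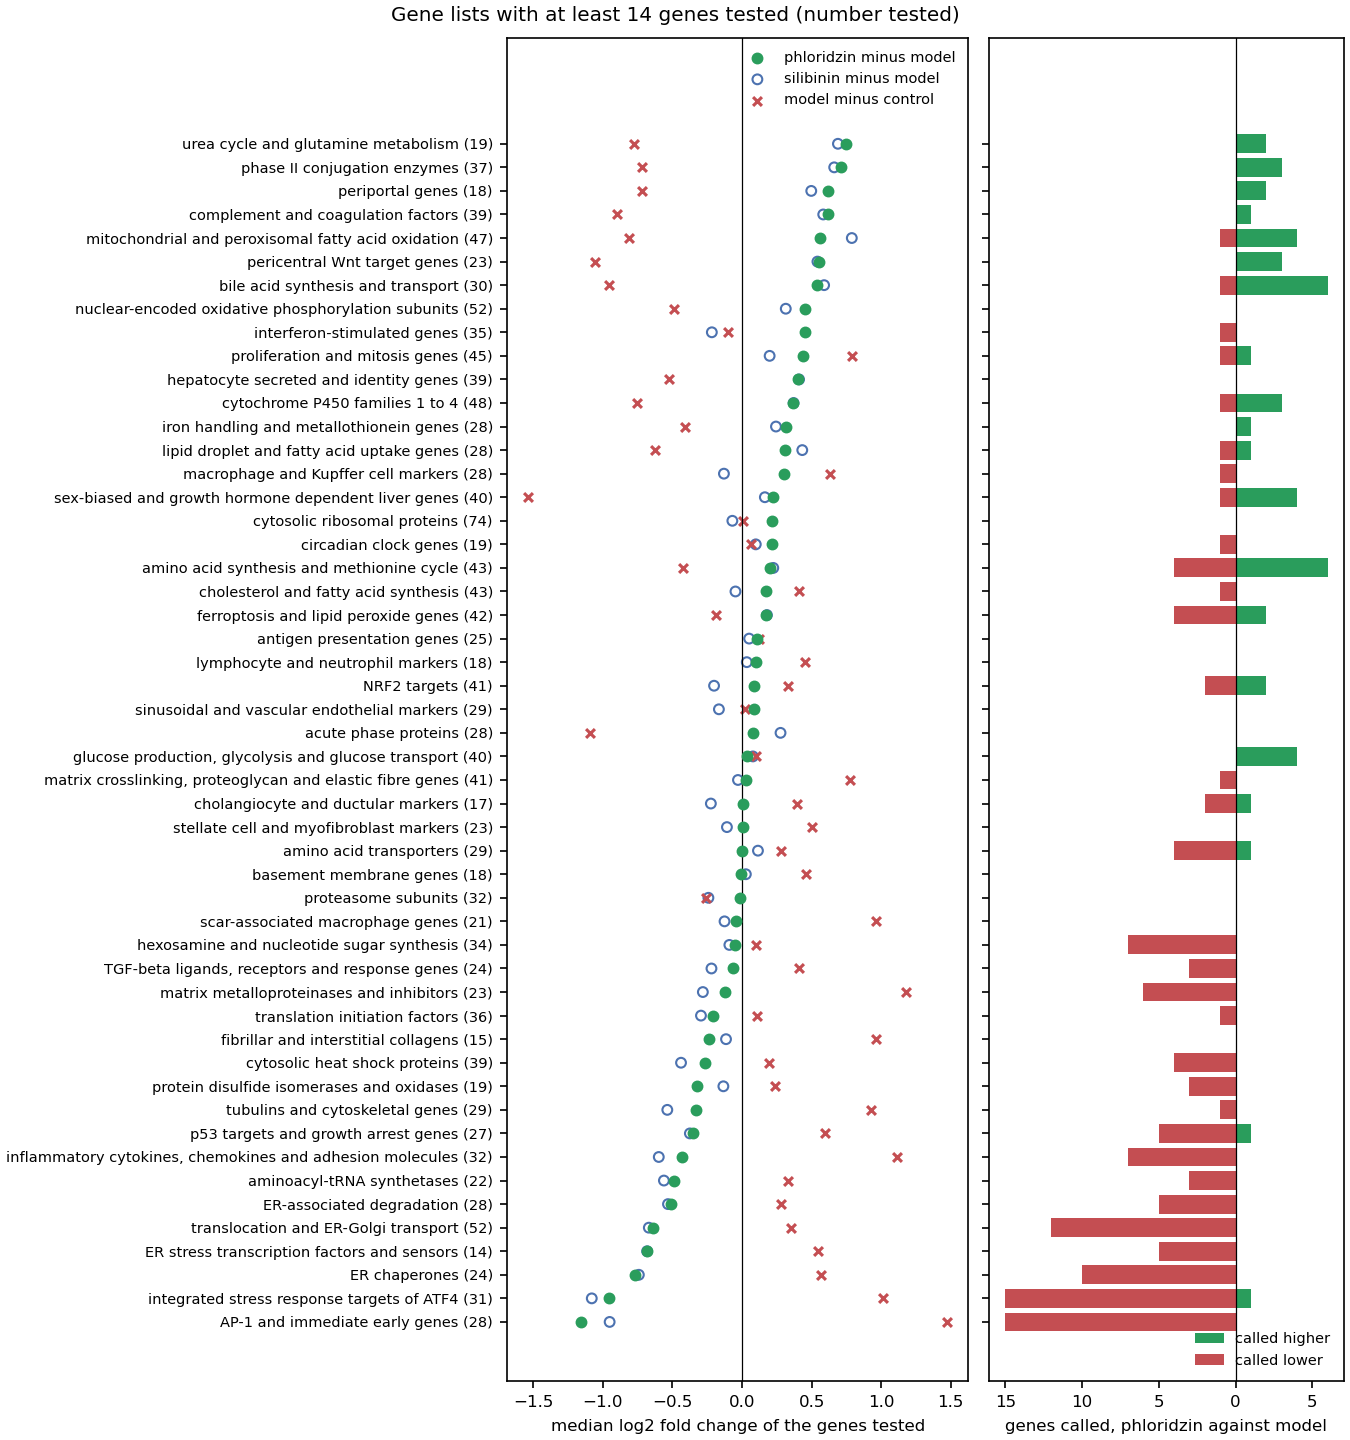
The left panel gives the median log2 fold change of each gene list with at least 14 genes tested for phloridzin minus model, silibinin minus model and model minus control, and the right panel counts the members called in phloridzin against model. The comparisons share the model livers, and stress lists lie lowest with up to 15 members called lower.

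In 4 further non-parenchymal lists the counts were near the background of 2.88%, which is no result about their members. Of 21 scar-associated macrophage genes, 18 lymphocyte and neutrophil markers, 29 endothelial markers and 25 antigen presentation genes, 0 were called by limma, with medians of -0.04, 0.10, 0.08 and 0.11 log2 units. At unadjusted p with the fold cutoff these counts were 1, 0, 0 and 0. Without phloridzin 1, 2 of the scar-associated genes and 1 of the lymphocyte and neutrophil markers were called. Of 17 cholangiocyte and ductular markers 1 was called higher (Tff3) and 2 lower (Sprr1a and Krt8, a keratin that hepatocytes make too), and the total of 3 went to 1 without phloridzin 2 and to 5 with equal totals. Krt8 fell by 1.19 log2 units and was not called without phloridzin 2 (-0.97). Of 9 ErbB receptors and ligands 1 was called higher and 2 lower. Btc (betacellulin, a ligand) fell by 1.01 log2 units and was not called without model 2 (-0.97), model 3 (-0.89), phloridzin 2 (-0.94) or phloridzin 3 (-0.9991). Nrg1 (neuregulin 1, a ligand) read 7.66, 6.72 and 7.14 FPKM in the model livers and 1.86, 0.237 and 0.629 in the phloridzin livers, and fell by 2.19 log2 units. Erbb3 (its receptor) read 21.9, 14.9 and 16.3 in the model livers and 41.6, 47.2 and 59.5 in the phloridzin livers. All phloridzin livers were above all model livers, and the receptor rose by 1.43 log2 units (SE 0.18, limma with Benjamini-Hochberg adjusted p 0.0011), called whichever liver was left out.

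Of 30 genes of bile acid synthesis and sterol transport, 6 were called higher and 1 lower, with a median of 0.54 log2 units. With only the 2 groups fitted, 4 were called higher and 0 lower. Over the alternatives run, the median went as low as 0.27. Cyp8b1 (the sterol hydroxylase that makes cholic acid) read 29.0, 15.6 and 39.7 FPKM in the model livers and 162, 160.1 and 137 in the phloridzin livers. The phloridzin livers lay well above the model livers and below the controls, which read 301, 382 and 239.9. It rose by 2.49 log2 units (SE 0.32, limma with Benjamini-Hochberg adjusted p 0.0011). Abcg5 (a sterol exporter of the bile canaliculus) read 2.93, 1.95 and 3.14 in the model livers and 9.83, 13.2 and 10.3 in the phloridzin livers, near the controls at 10.04, 12.6 and 10.5. It rose by 1.73 log2 units (SE 0.18) and, like Cyp8b1, was called in every fit with a liver left out. Cyp7a1 (the rate-setting step of bile acid synthesis) read 19.9, 3.15 and 19.7 in the model livers and 38.0, 135 and 106 in the phloridzin livers. Model 2 and phloridzin 1 were the low livers of their groups, and phloridzin 2 and 3 lay above every control. It rose by 2.77 log2 units, and was not called without model 2 (1.99 log2 units), phloridzin 2 (2.41) or phloridzin 3 (2.58). Abcc4 (an export pump for bile acids) fell by 1.35 log2 units.

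The largest rise among all genes tested was that of Slc3a1 (the partner chain of a cystine and dibasic amino acid carrier). It read 38.0, 83.5 and 143 FPKM in the phloridzin livers and 0.02998, 0.0111 and 0.0509 in the model livers. The silibinin livers read 0.0469, 0.0181 and 120.3 and the controls 0.0283, 0.0641 and 0.0926, so high values came in 4 of the 12 livers, all given a drug. The rise of 6.24 log2 units (SE 1.46) was not called without model 1, 2 or 3 or phloridzin 2 or 3, with values from 5.80 to 6.24 log2 units. Tff3 (trefoil factor 3, a mucosal repair peptide) read 4.10, 33.3 and 31.5 in the phloridzin livers and 1.12, 0.761 and 0.749 in the model livers. Phloridzin 1 was far below the other 2, and the silibinin livers read 2.41, 4.18 and 18.3. The rise of 3.25 log2 units was not called without model 2 (3.21), model 3 (3.20), phloridzin 2 (2.79) or phloridzin 3 (2.82). Gpx4 (the peroxidase that protects membranes from ferroptosis) read 236, 259 and 153 in the phloridzin livers and 88.7, 20.8 and 18.6 in the model livers. The control livers read 42.9, 171 and 50.8, so the spread within groups was wide. The rise of 2.65 log2 units (adjusted p 0.045 by limma with Benjamini-Hochberg) was not called without control 1 or 3, model 2 or 3, silibinin 1 or 2 or any phloridzin liver, with values from 2.26 log2 units without model 3 to 2.88 without phloridzin 3. Of 42 ferroptosis and lipid peroxide genes, 2 were called higher and 4 lower, at a median of 0.17.

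**Figure D5:**
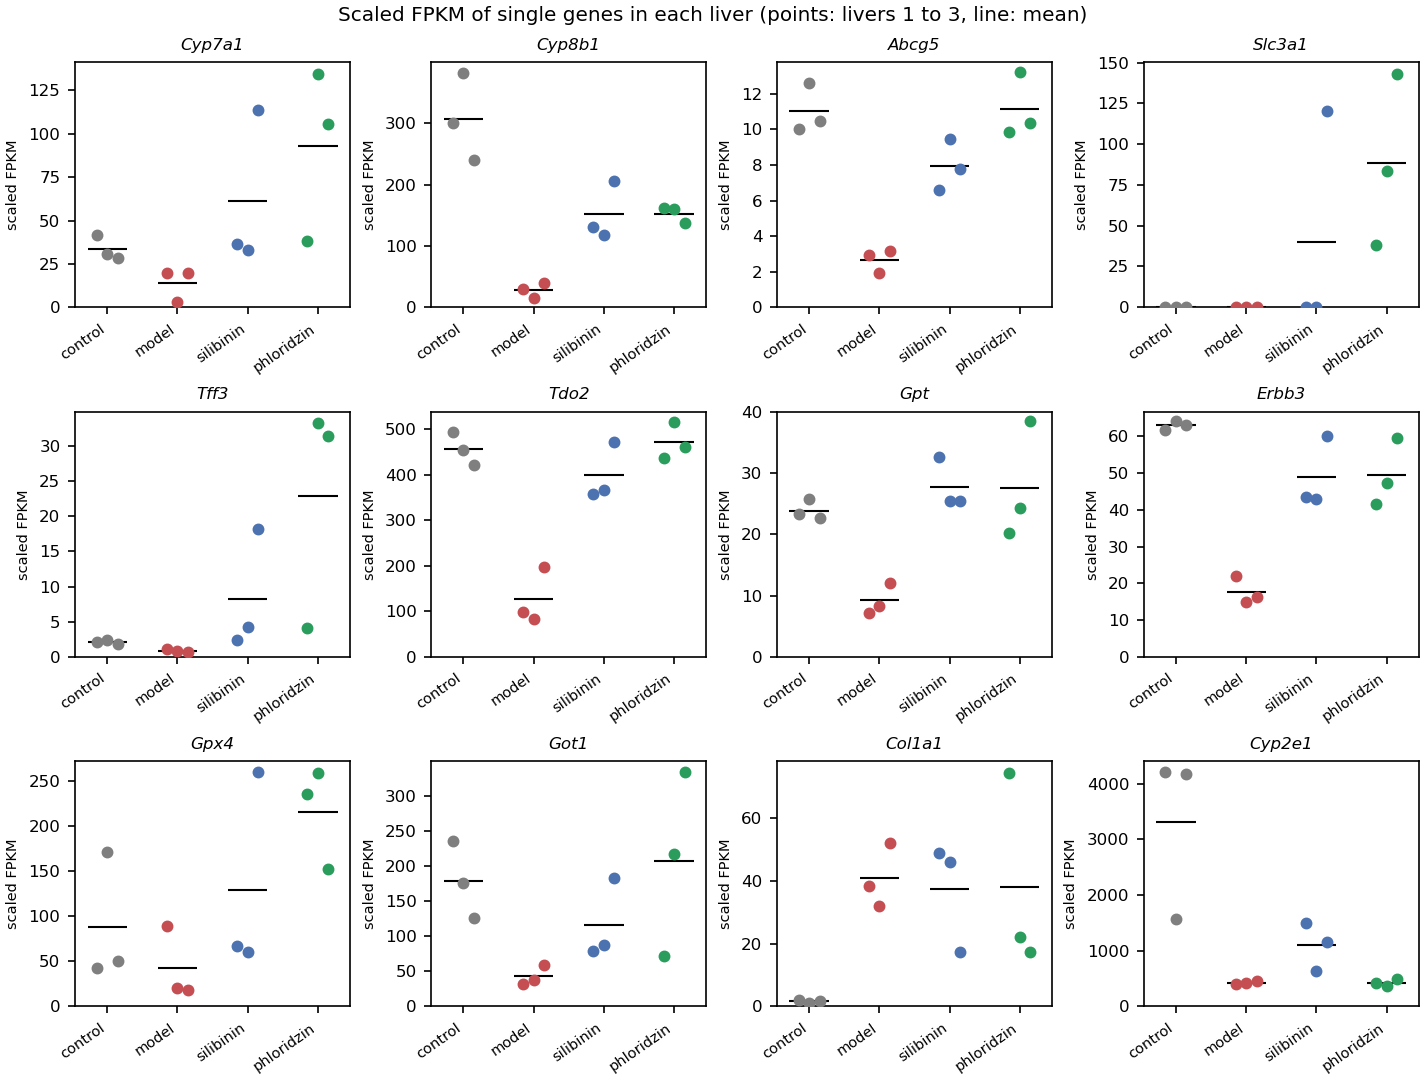
Scaled FPKM of 12 genes in each liver, with points in the order 1, 2, 3 and a line at the group mean. Cyp8b1, Abcg5, Tdo2, Gpt and Erbb3 separate the phloridzin from the model livers, and Slc3a1, Tff3 and Col1a1 spread widely within the phloridzin group.

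Single genes of amino acid and aldehyde metabolism were called higher, with no list for the breakdown of amino acids. Tdo2 (tryptophan dioxygenase) read 98.6, 82.0 and 197 FPKM in the model livers and 437, 516 and 461 in the phloridzin livers. Each phloridzin liver was above each model liver and inside or just past the control range. It rose by 2.00 log2 units (SE 0.28, limma with Benjamini-Hochberg adjusted p 0.0018). Gpt (alanine aminotransferase, whose protein in serum is the usual sign of liver injury) read 7.24, 8.36 and 12.1 in the model livers and 20.2, 24.3 and 38.5 in the phloridzin livers. It rose by 1.46 log2 units (SE 0.23), and the model livers lay below the controls, which read 23.3, 25.8 and 22.6. Got1 (cytosolic aspartate aminotransferase) read 31.6, 37.7 and 58.4 in the model livers and 72.1, 216 and 334 in the phloridzin livers. Phloridzin 1 was nearest to the model livers, and the rise of 2.05 log2 units was not called without model 1 (1.87), model 2 (1.99), phloridzin 2 (1.89) or phloridzin 3 (1.58). Aldh1b1 (a mitochondrial aldehyde dehydrogenase) rose by 1.43 log2 units, to 49.3, 71.5 and 92.4 FPKM from 25.5, 19.96 and 30.0. In the list of amino acid synthesis and the methionine cycle 6 of 43 genes were called higher and 4 lower, and the total of 10 went to 16 without phloridzin 1 and to 6 without model 2 or phloridzin 3. Amino acid carriers gave 5 calls of 29, and 10 without phloridzin 1.

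Lists of hepatocyte metabolism had raised medians with few calls, and the medians depended on scaling. With equal totals they were 0.41 log2 units for phase II enzymes, 0.32 for fatty acid oxidation, 0.14 for oxidative phosphorylation and 0.08 for cytochrome P450 genes, where the main fit gave 0.71, 0.56, 0.45 and 0.36. Phase II conjugation enzymes had a median of 0.71 log2 units, with all 3 phloridzin livers above all 3 model livers for 21 of 37 and 3 called higher. That count was 1 without model 2 or phloridzin 2 and 6 without phloridzin 1. Gstt3 (a theta glutathione transferase) rose by 1.42 log2 units, and Ces1g (a carboxylesterase of lipid turnover) by 1.90, to 209, 144 and 98.9 FPKM from 28.4, 39.0 and 48.7. Fatty acid oxidation genes had a median of 0.56 and 27 of 47 without overlap above the model, but 4 calls higher and 1 lower, a total that went to 1 without model 2 or phloridzin 2, to 2 without model 1 and to 3 without phloridzin 3. Nuclear-encoded oxidative phosphorylation subunits lay above the model in all 3 livers for 31 of 52, with a median of 0.45, 0 calls by limma and 2 at unadjusted p with the fold cutoff. It had 1 call without control 3, model 1 or phloridzin 1. Of 48 cytochrome P450 genes of families 1 to 4, 3 were called higher and 1 lower, and the total of 4 went to 1 without model 1 or phloridzin 3 and to 2 without phloridzin 2. Cyp4a12b (a fatty acid hydroxylase biased to males) rose by 1.56 log2 units, with reads that it may share with its near copy Cyp4a12a. Cyp2e1 (the enzyme that activates CCl4) read 393, 423 and 460.1 in the model livers and 420.4, 356 and 492 in the phloridzin livers. These ranges overlapped, its difference being -0.02 log2 units, and controls read 4208, 1573 and 4172.

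Glucose genes, of interest because phloridzin blocks glucose carriers, had a median of 0.03 log2 units over 40 genes tested. The 4 called higher were Fbp1 and G6pc (gluconeogenesis), Pdk2 (a brake on pyruvate oxidation) and Slc2a5 (a fructose carrier). Each was lost in 2 or more fits with a liver left out. The count was 0 without model 2 or phloridzin 3 and 1 without model 1. The phloridzin targets themselves were under the filter. Slc5a1 (SGLT1) read 0.142, 0.269 and 0.406 FPKM in the phloridzin livers and 0.450, 0.160 and 0.208 in the model livers. Slc5a2 (SGLT2) read 0.192, 0.113 and 0.148 in the phloridzin livers and 0.135, 0.131 and 0.203 in the model livers. Both were thus below 0.5 FPKM in all 6 livers. Fasn (fatty acid synthase) fell by 1.26 log2 units and was not called without model 3 (-1.08), and it was the only call among 43 genes of cholesterol and fatty acid synthesis. That list had 2 calls without model 1, silibinin 3 or phloridzin 1 and 3 without phloridzin 2.

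Zonal and secreted hepatocyte genes were shifted in part. The 23 pericentral genes of the Wnt pathway had a median of 0.55 log2 units against the model and -0.29 against control, with 3 called higher, 1 without phloridzin 2. Over the alternatives run, the median of this list against the model ran from 0.24 to 0.65 and its calls from 0 to 5. Glul (glutamine synthetase of the innermost hepatocytes) read 25.7, 29.5 and 30.6 FPKM in the model livers and 46.3, 77.9 and 55.9 in the phloridzin livers. The controls, at 516, 343 and 472, lay far above both. It rose by 1.02 log2 units and was not called without model 1 (0.95) or phloridzin 2 (0.82), without scaling (0.84), with equal totals (0.70) or with the top transcript (0.98). Lhpp (a phosphatase lost in liver tumors) read 0.447, 1.80 and 1.57 in the model livers and 3.54, 6.92 and 7.76 in the phloridzin livers, again under the controls at 41.7, 35.2 and 40.5. It rose by 1.64 log2 units, and with its top transcript alone by 0.90, which was not called. Complement and coagulation factors had a median of 0.62 with 1 of 39 called (0 without model 1 or 2 or phloridzin 2, 3 without phloridzin 1, 2 without phloridzin 3), and hepatocyte secreted and identity genes a median of 0.40 with 0 of 39 called by limma and 2 passing at unadjusted p. The last list had 1 call without control 1 and 2 without model 1 or phloridzin 1. Over the alternatives run, the median went as low as 0.30 for complement and coagulation factors and 0.12 for hepatocyte secreted and identity genes. Genes biased by sex and growth hormone had a median of 0.22 against the model and -1.08 against control, beside -1.54 for model minus control. The list holds genes of either bias, and of its 40 members 4 were called higher and 1 lower against the model and 6 lower against control. With only the 2 groups fitted, 2 were called higher and 0 lower against the model. Over the alternatives run, the total of 5 against the model went as low as 1, and the median as low as 0.

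Several lists separated phloridzin 1 from phloridzin 2 and 3. Proliferation and mitosis genes had a median of 1.48 log2 units in phloridzin 1 over the mean of phloridzin 2 and 3, with 33 of 45 more than 1 unit higher. In the other 11 livers the same median, taken against each liver's own group, ran from -0.91 to 0.18. Cdc20 (a mitotic activator) read 43.6, 5.03 and 4.79 FPKM in the phloridzin livers and 7.12, 8.07 and 8.45 in the model livers. Only phloridzin 1 exceeded the model, and the median of the list against the model was 0.44 with it and -0.18 without it. Interferon-stimulated genes had a median of 1.40 in phloridzin 1 over its group, with 23 of 35 more than 1 unit higher, and their summed level was 646, 235 and 213 FPKM. Against the model their median was 0.45 with phloridzin 1 and -0.08 without it. Targets of NRF2, a transcription factor of the oxidative stress response, had a median of 1.18 in phloridzin 1 over its group. In that liver 24 of 41 lay more than 1 unit higher. Against the model their median was 0.08 with phloridzin 1 and -0.26 without it.

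Of the 8 genes furthest above and the 8 furthest below phloridzin 2 and 3 in phloridzin 1, Mup12 and Mup11 lay highest, by 8.79 and 6.501 log2 units, and Ttr and Mup13 lowest, at -7.75 and -7.25. Mup12 read 442, 0 and 0 FPKM in the phloridzin livers, Mup11 152, 0.851 and 0.550 and Mup13 0, 118 and 194. These 3 major urinary protein genes are close copies, moved in both directions and were not called against the model. Cbr3 (a carbonyl reductase induced by NRF2) read 56.7, 1.79 and 1.61 FPKM in the phloridzin livers and 2.39, 3.58 and 4.08 in the model livers. Gstm1 (a mu glutathione transferase with close paralogs) read 2144, 484 and 476 in the phloridzin livers and 286, 542 and 453 in the model livers. In both, phloridzin 1 was above all other livers, and phloridzin 2 and 3 lay near or below the model. Periportal genes moved the opposite way, -1.03 log2 units in phloridzin 1 under its group, and urea cycle genes by -0.85. Ass1 (argininosuccinate synthase) read 825, 1869.6 and 2396 FPKM in the phloridzin livers and 706, 704 and 924 in the model livers. Phloridzin 1 lay inside the model range, and phloridzin 2 and 3 were above every model liver. The median of the urea cycle list against the model was 0.75 log2 units with phloridzin 1 and 0.87 without it, and its calls went from 2 to 8. That count was 0 without phloridzin 2 and 1 without any single other liver except silibinin 3. The medians of ER chaperones, ATF4 targets and AP-1 genes in phloridzin 1 were -0.05, 0.15 and 0.01 against its group, although the summed level of ATF4 targets was lowest in it. Their medians against the model without it were -0.77, -0.96 and -1.15.

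Set against silibinin directly, phloridzin gave 3 called genes of 13079 (0.0229%), and 81 passed at unadjusted p below 0.05 with the same fold cutoff. Klhdc7a (a kelch-domain gene of little known function, under the level set for naming and chosen after its values were seen) read 3.04, 1.81 and 2.63 FPKM in the phloridzin livers and was listed at 0 in all other 9 livers. Pcgf6 (a subunit of a polycomb complex) read 0.617, 0.681 and 0.692 in the phloridzin livers and 3.54, 3.49 and 4.57 in the silibinin livers. It was lower than in every liver of the other groups, and against the model it fell by 2.00 log2 units. Wdr89 (a WD-repeat gene) read 0.0115, 0.0224 and 0.381 in the phloridzin livers, 1.82, 2.03 and 2.41 in the silibinin livers and 0.0174, 0.0715 and 0.00845 in the model livers, so the phloridzin and model livers were both near 0. The count was 0 without phloridzin 3 and 1 without silibinin 2. None of the members of the gene lists was called in this comparison. The 2 drug groups share the model livers as reference, and against them silibinin gave list medians of -0.74 for ER chaperones, -1.08 for ATF4 targets and -0.95 for AP-1 genes. The few calls do not show that the drugs act alike, since 3 livers a group leave wide intervals: that of Col1a1 ran from -1.29 to 1.001 log2 units, phloridzin minus silibinin.

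Against the control livers, 243 genes (1.86%) were called, 179 higher (1.37%) and 64 lower (0.489%). The total was 148 without control 1, 147 without control 2 and 392 without phloridzin 3. Of the 15 collagens, 4 were called higher, and of the 21 scar-associated macrophage genes 7, with medians of 0.97 and 1.11 log2 units. ER chaperones had a median of -0.49 and AP-1 genes a median of 0.22 in the same comparison.

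Some values jumped between near 0 and high levels within a group (Slc3a1, Ttr), and 29.1% to 42.1% of the FPKM of each liver lay in transcripts with no gene symbol, which were not used. Whether these are linked was not tested, and Mrpl49, called higher, and Syvn1, called lower, overlap on opposite strands. Among the other called genes named above, Abcg5, Cxcl10, Ddit3, Lhpp, Pdia3 and Slc3a1 overlap a gene on the opposite strand, and Glul, Gstt3, Hsp90b1 and Srprb overlap a gene on the same strand. Manf overlaps a gene on each strand. How reads were shared between such genes was not tested, so these values are less certain.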

How the data were processed

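Total RNA of 12 mouse livers, 3 a group, was extracted with Trizol and sequenced from NEBNext Ultra libraries. According to the submitters, reads were demultiplexed with bcl2fastq, checked with FastQC 0.11.5, aligned to mm10 with HISAT2 2.1.0 and assembled with StringTie 1.3.3b, and differential expression was tested with DESeq 1.28.0. The values are transcript FPKM as deposited by the authors, 1 table with 169430 transcripts. FPKM were summed per gene symbol, scaled by median ratios over genes above 0 in every liver, and tested as log2(value + 1) with limma 3.58.1 in R 4.3.3 (eBayes with a trend, 12 livers in 4 groups, 8 residual degrees of freedom, two-sided, Benjamini-Hochberg). Genes with a mean scaled FPKM under 0.5 and transcripts with no symbol were left out. The fit was tested on simulated data, and no result given here rests on that test. Fragment numbers were recovered from FPKM and transcript length (98.7% to 98.9% of low values were whole within 0.05), at 83.7 to 110.9 M (mega) fragments a liver.

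The 57 gene lists and the members compared were chosen with earlier results of these data known, and lists are described by counts and medians with no set test. Genes named in the text were drawn from those a rule selects: the 12 largest rises and 12 largest falls among called genes without overlap and with a mean of at least 1 FPKM, from each list up to 6 called members with the largest change and 4 with the highest level, the 6 largest changes each way against silibinin, the 8 genes highest and 8 lowest in phloridzin 1, and a few fixed genes of the study. Not every gene so selected is reported here, and the counts and medians of lists keep all members. Named outside the rule were Klhdc7a, the markers Ctrb1, Muc2, Umod, Plin1 and Ckm, and the overlapping gene Mars. Promoters came from RefSeq on GRCm38.p6 and gene classes from GENCODE M21. Replicate numbers are not stated to pair the groups. Alternatives covered filter, pseudocount, scaling, pairing, weights, summary per gene, test and each liver left out.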

Additional observations from a re-analysis of the deposited data

How the results depend on the processing

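Phloridzin against model gave 377 called genes, 140 higher and 237 lower, phloridzin against silibinin 3 and phloridzin against control 243. With a pseudocount of 0.1 these were 586, 241, 345, 2 and 686. Without scaling they were 463, 79, 384, 3 and 398, and with equal totals 607, 50, 557, 3 and 327. With only the 2 groups compared they were 279, 76, 203, 0 and 61, a fit with fewer livers to estimate spread. With no fold cutoff they were 1422, 613, 809, 3 and 783. With array weights they were 485, 215, 270, 3 and 277, phloridzin 1 having the lowest weight, 0.399. With the top transcript of each gene they were 317, 117, 200, 5 and 142. With voom on recovered fragments they were 614, 240, 374, 3 and 521. With a mean of at least 1 FPKM, 1 gene was called against silibinin, and the other counts stayed within 1.5 times. No filter, no trend and protein-coding genes alone moved no count by more than 1.5 times. Replicate number as a block gave 362, 129, 233, 3 and 195. After the group mean was taken from each gene, livers of equal number in different groups correlated at -0.089 to 0.106 (Pearson r across genes). Livers of unequal number in different groups correlated at -0.171 to 0.144, so the numbers were read as no pairing.

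When single livers were left out, the genes called ran from 252 to 514, those higher from 64 to 235 and those lower from 188 to 279. Against silibinin the range was 0 to 3 and against control 147 to 392. The livers behind the ends were model 2 (252, 64 and 188), phloridzin 1 (514, 235 and 279), phloridzin 3 (0 against silibinin, 392 against control) and control 2 (147). Counts also moved without phloridzin 2 (80 higher), silibinin 2 (1 against silibinin) and control 1 (148 against control). Apart from filters and fewer livers, the cause was not tested.

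Chosen after seeing the data, sums per Ensembl gene ID gave 377, 140 and 237, and the 2 groups without phloridzin 1 gave 422, 184 and 238. In that last fit Ttr reversed, from -0.97 to 1.62 log2 units, since phloridzin 1 held its lowest value. Of 79 named genes that were called, 51 were called under every alternative that tested them, 48 of these with all 26 run. With equal totals 42 of 57 list medians moved by more than the spread between phloridzin livers, and of those past 0.2 in size 5 changed sign. Without scaling 30 moved and 0 changed sign. Small differences are limited by 3 livers a group, by scaling and by the 29.1% to 42.1% of FPKM in rows with no symbol.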
